A study of Caenorhabditis elegans with 6 samples.

Results

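The furrow and body-shape collagens are 10 cuticle collagen genes of Caenorhabditis elegans, named for what their mutants look like: short and fat (dpy, dumpy), turning around the long axis (rol, roller) or both (sqt, squat). They were taken by gene name (dpy-2, dpy-3, dpy-7, dpy-8, dpy-10, dpy-13, dpy-14, rol-6, sqt-1 and sqt-3), and all 10 were found among the 47656 genes of the deposited tables. Their RNA was measured in whole worms of the wild-type strain N2, aged 6 days and fed OP50 bacteria on agar plates. Of the 6 libraries, 3 came from worms treated with D-mannose and 3 from water controls. The sources used here give neither the dose nor the length of the treatment. The comparison asks whether these collagen transcripts differ between worms with and without the sugar. The labels do not say that replicates came from separate cultures, so p-values measure the spread between these libraries, which may be technical.

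The cuticle is a collagen-rich coat that the epidermis secretes, and it is replaced at each larval moult. Its collagens are made as precursors that are hydroxylated on proline, assembled as trimers, cut by proteases, secreted and cross-linked. DPY-2, DPY-3, DPY-7, DPY-8 and DPY-10, with DPY-9, are known to lie in or form the circumferential furrows between the ridges of the cuticle, and loss of any of them removes the furrows. The other members, DPY-13, DPY-14, ROL-6, SQT-1 and SQT-3, are collagens outside that furrow group that also set body shape. Many of these genes are known to be transcribed in bursts that come with the moults, which worms of this age have passed.

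The values are FPKM, a read count scaled by gene length and a library size. Converted back to reads, the libraries summed to 3.99e+07 to 4.60e+07, and a single read in 1 kb of gene stood for 0.0202 to 0.0263 FPKM. That scale corresponds to library sizes other than these sums. The size was 3.80e+07 in mannose 1 and 3.86e+07 in water 3, below their sums of 4.27e+07 and 4.60e+07. In the other 4 libraries it was above the sum, such as 4.94e+07 against 4.37e+07 in mannose 3. FPKM in mannose 1 and water 3 are thus higher than scaling by the sums would give, and in the other 4 lower. All 60 member values were whole numbers of reads, within 0.05 of a read, from 0 to 778 reads. Mannose 1 and water 3 stood apart from the other libraries in oocyte genes: 9 oocyte and eggshell markers summed to 4317 FPKM in mannose 1 and 5039 in water 3, against 2085 to 2713 in the other 4. Members whose differences rest on these libraries are given with and without them. In bulk RNA from whole worms, a smaller epidermal share of the RNA and less collagen RNA within the epidermis cannot be told apart.

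All 10 members were detected, at levels far below those of the most abundant collagen genes. Together they summed to 16.5 to 20.5 FPKM in 5 libraries and to 41.5 in water 3. That was 0.0351% to 0.0755% of the summed FPKM of 176 collagen genes, made up of the col genes, the members and other collagens with shape or blister phenotypes. The collagen sum itself was 33073 to 38313 FPKM in mannose and 45969 to 54934 in water, so it did not overlap between groups, and its part in the members' differences was not tested. The member with the highest mean over all libraries, dpy-13 (6.73 FPKM), ranked 62 of the 176, and the lowest, dpy-3 (0.146 FPKM), ranked 139. By comparison the other 166 collagen genes had a median of 2.21 FPKM and reached 4154, and 8 of them were at 0 in every library. That median was exceeded by 4 members, dpy-13, sqt-3, dpy-14 and dpy-10.

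**Figure D1:**
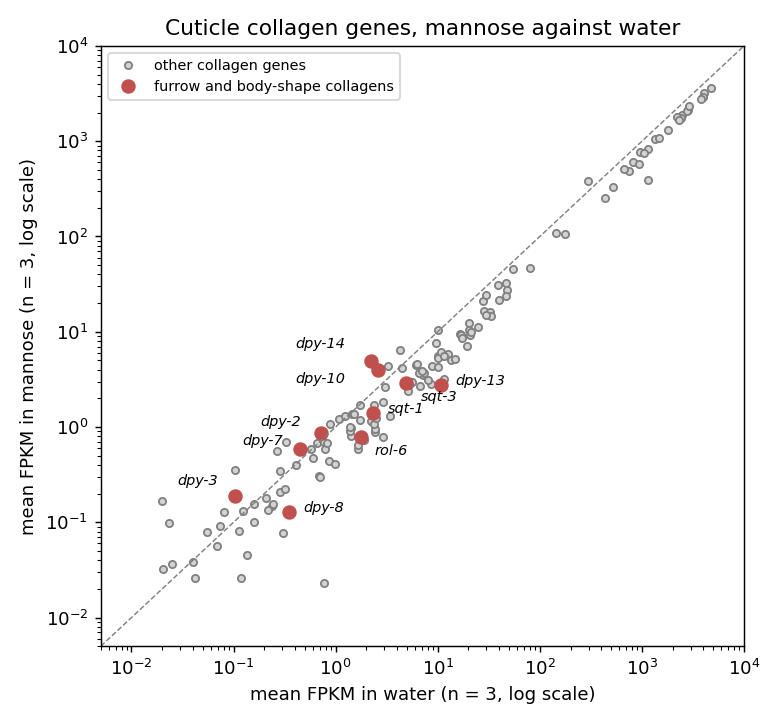
Mean FPKM of 153 collagen genes above 0 in both groups, in water (horizontal) and in mannose (vertical), both on log scales with 3 libraries per group; red points are the 10 furrow and body-shape collagens and the dashed line marks equal levels. The red points lie in the lower part of the range, between 0.103 and 10.7 FPKM in water, with dpy-14 above the line and dpy-13, rol-6 and dpy-8 below it.

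The order of the members' levels, compared per length as FPKM, differed between the groups. In mannose dpy-14 came first (4.97 FPKM), followed by dpy-10 (3.93), sqt-3 (2.87) and dpy-13 (2.79), and each of these neighbours overlapped in range. A gap separated dpy-13 from sqt-1 (1.41), dpy-2 (0.857), rol-6 (0.788) and dpy-7 (0.587), which again overlapped one by one. A second gap separated these from dpy-3 (0.189) and dpy-8 (0.129). In water dpy-13 came first (10.7 FPKM), then sqt-3 (4.93), dpy-10 (2.61), sqt-1 (2.32), dpy-14 (2.23) and rol-6 (1.75), each overlapping the next. Below them dpy-2 (0.727), dpy-7 (0.451), dpy-8 (0.349) and dpy-3 (0.103) had ranges that did not overlap with their neighbours. The ratio of dpy-14 to dpy-13 was 1.69 to 1.86 in the mannose libraries and 0.0821 to 0.462 in the water libraries.

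**Figure D2:**
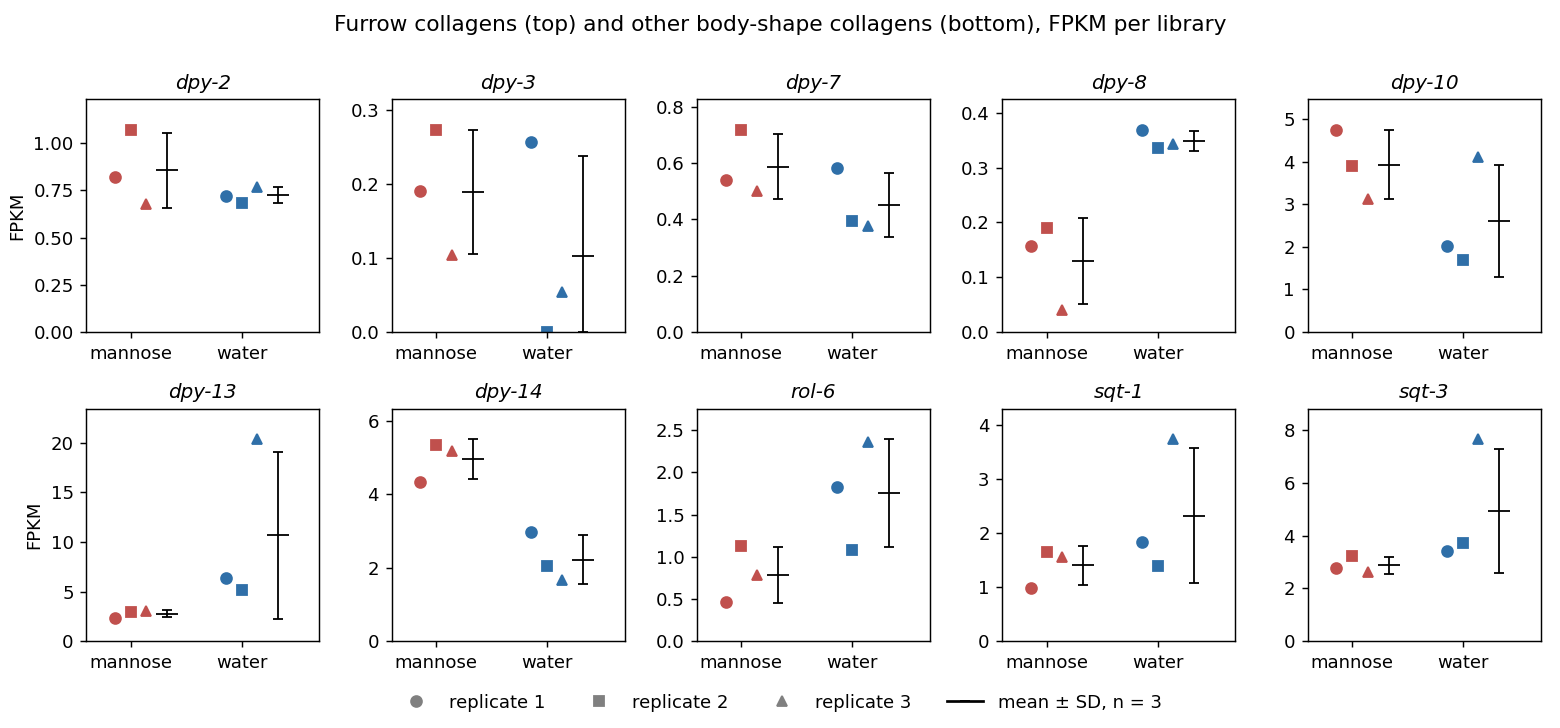
FPKM of each furrow collagen (top row) and each other body-shape collagen (bottom row) in the 3 mannose and 3 water libraries; symbols mark the replicate, and the bar to the right is the mean with its SD, cut at 0 for dpy-3. The groups are separate for dpy-8, dpy-13, dpy-14 and sqt-3, and water 3 is the highest library for dpy-13, rol-6, sqt-1 and sqt-3.

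No member passed the test between mannose and water. The test was limma on log2(FPKM + 1), for the 11237 genes that reached 1 FPKM in 3 or more of the 6 libraries. Of the members 6 were among them: dpy-10, dpy-13, dpy-14, rol-6, sqt-1 and sqt-3. The adjusted p was 0.9999 for each of the 6, and 0 of all 11237 genes were called (0% of genes) at an adjusted p under 0.05. At an unadjusted p under 0.05 there were 3 of the 6, against 4.73% of all tested genes (532). That number of members was 1 without mannose 1, where 440 of the 11237 genes had such a p, and 1 without mannose 3 (618 genes). It was 5 with a term for mannose 1 and water 3, a setting in which 1453 genes had such a p. With limma-voom, run on the read equivalents, the number called was 0 as well, and 535 genes and 3 members had an unadjusted p under 0.05. Among the 6, 4 were lower in mannose, where 45.5% of tested genes were lower, a share that upper-quartile scaling moved to 57.5%. Under that scaling the members still split 5 and 5 over all 10. The gene rol-6 entered the test through 1 mannose and 3 water libraries. The other 4 members, dpy-2, dpy-3, dpy-7 and dpy-8, were under the filter, and their tests come from the fit without a filter on low values.

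Over all 10 members 5 were lower in mannose (dpy-8, dpy-13, rol-6, sqt-1 and sqt-3) and 5 higher, where 47.8% of 21746 genes with any value were lower. The members' median log2 difference was −0.080, against 0.0043 for those genes. Without mannose 1 and water 3 that median was 0.042, with 4 members lower, so its sign rests on these libraries. The groups did not overlap for 3 members lower in mannose, dpy-8, dpy-13 and sqt-3 (4.43% of the 21746 genes, and 5.31% of those past the filter), and for 1 higher, dpy-14 (4.22% and 5.42%). Counting both directions, that was 4 of 10 members and 8.65% of genes. In the fit without a filter 4 of 10 had an unadjusted limma p under 0.05, against 4.11% of genes. Of these dpy-8, dpy-13 and rol-6 were lower (2.31% of genes) and dpy-14 higher (1.8%).

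**Figure D3:**
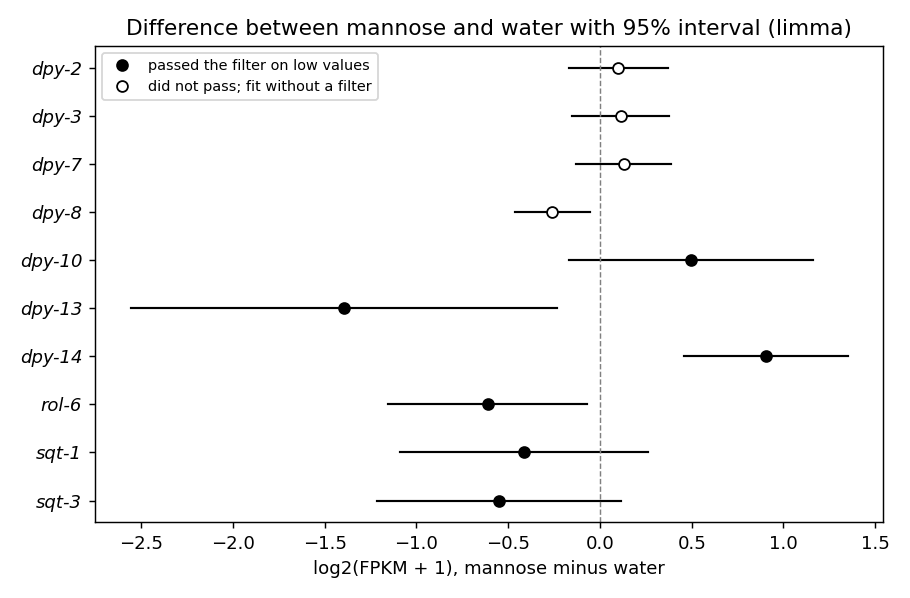
Difference in mean log2(FPKM + 1), mannose minus water, for the 10 members, with 95% intervals from limma; filled points passed the filter on low values and open points are from the fit without a filter. The intervals of dpy-8, dpy-13 and rol-6 lie below 0 and that of dpy-14 above 0 before adjustment for multiple tests, and none passed after adjustment.

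For the furrow collagens dpy-2, dpy-3 and dpy-7 the groups overlapped. dpy-2 (chromosome II, 6714292 to 6715991) had 0.822, 1.07 and 0.678 FPKM in mannose 1, 2 and 3, against 0.723, 0.686 and 0.771 in water 1, 2 and 3. dpy-7 (X, 7536465 to 7538208), whose promoter is widely used to drive transgenes in the epidermis, had 0.540, 0.718 and 0.502 FPKM in mannose and 0.583, 0.394 and 0.376 in water. dpy-3 (X, 2144599 to 2145647) had 0.191, 0.273 and 0.105 FPKM in mannose and 0.257, 0 and 0.0536 in water. In each of the 3 genes mannose 2 was the highest library. The counts were small: dpy-3 had 0 to 12 reads per library, and its 0 in water 2 allows up to 0.0715 FPKM (3 reads, counting error only). The log2 differences of dpy-2, dpy-3 and dpy-7 were 0.10, 0.11 and 0.13, with 95% intervals of −0.17 to 0.37, −0.15 to 0.38 and −0.13 to 0.39. This scale understates the change of low genes. With a pseudocount of 0.1 and no filter the intervals were −0.36 to 0.74, −0.66 to 2.01 and −0.31 to 0.96. The width of the dpy-3 interval leaves large differences in either direction undetectable at this depth. Part of the listed dpy-7 model overlaps glb-16 on the same strand, a gene with a mean of 0.153 FPKM that shares no exon base with dpy-7 in the Ensembl annotation.

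The furrow collagen dpy-8 (X, 5148804 to 5150476) was lower in each mannose library than in any water library. It had 0.157, 0.190 and 0.0402 FPKM in mannose, from 9, 12 and 3 reads, and 0.369, 0.335 and 0.342 in water, from 27, 22 and 20 reads. The means were 0.129 ± 0.0788 and 0.349 ± 0.0178 FPKM (SD, n = 3), 2.70 times higher in water. In the limma fit without a filter dpy-8 differed by −0.26 log2 units (standard error 0.083), with an unadjusted p of 0.020 and an adjusted p of 0.92. With a pseudocount of 0.1 the difference was −1.04. The 95% counting interval of mannose 2, the highest mannose library, was 0.0984 to 0.333 FPKM, and that of water 2, the lowest water library, 0.210 to 0.508, and these intervals overlapped. The end of dpy-8 also overlaps C31H2.14 on the opposite strand by 90 bases of the deposited models. C31H2.14 had 5.68 to 8.73 FPKM in mannose and 6.96 to 9.92 in water. The sources used here do not state the strand setting of the counting, and without it reads of dpy-8 and C31H2.14 in that stretch cannot be told apart.

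The furrow collagen dpy-10 carried most of the furrow collagen signal, 63.4% to 73.5% of the summed FPKM of the 5 genes in mannose and 51% to 72.7% in water. These shares leave out reads given to the overlapping model T14B4.19 (96 and 49 in water 1 and 2, 10 and 48 in mannose 2 and 3). Water 1 and 2 had the lowest shares, 51% and 54.4%. dpy-10 is the gene whose mutation is often used as a visible marker in genome editing of this species. dpy-10 (II, 6710149 to 6712928) had 4.75, 3.90 and 3.13 FPKM in mannose and 2.01, 1.69 and 4.11 in water. Water 3 lay within the mannose range, and water 1 and 2 lay below it. The means were 3.93 ± 0.810 and 2.61 ± 1.32 FPKM (SD, n = 3). The limma difference of dpy-10 was 0.50 log2 units (standard error 0.28, adjusted p = 0.9999), and it was 0.31 without water 2 and 0.78 without water 3. The neighbouring dpy-2 lies 1363 bases away on the other strand.

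The dpy-10 span is shared with a second expressed gene model. The model T14B4.19 lies on the same strand over the same span, and 780 of its 823 exonic bases in the Ensembl annotation are also exonic in dpy-10. T14B4.19 had 0, 10 and 48 reads in mannose 1, 2 and 3, against 96, 49 and 0 in water 1, 2 and 3. It thus held 37.8% and 29.2% of the reads of the pair in water 1 and 2, 16.1% in mannose 3, 3.65% in mannose 2 and none in mannose 1 and water 3. The summed reads of the pair were 293, 274 and 299 in mannose and 254, 168 and 258 in water. Scaled to the dpy-10 length, the sum came to 4.18 ± 0.522 FPKM with mannose and 3.25 ± 0.865 with water (SD, n = 3), and the groups still overlapped. The sum differed by 0.30 log2 units (standard error 0.19, limma adjusted p = 0.9999), against 0.50 for dpy-10 alone.

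**Figure D4:**
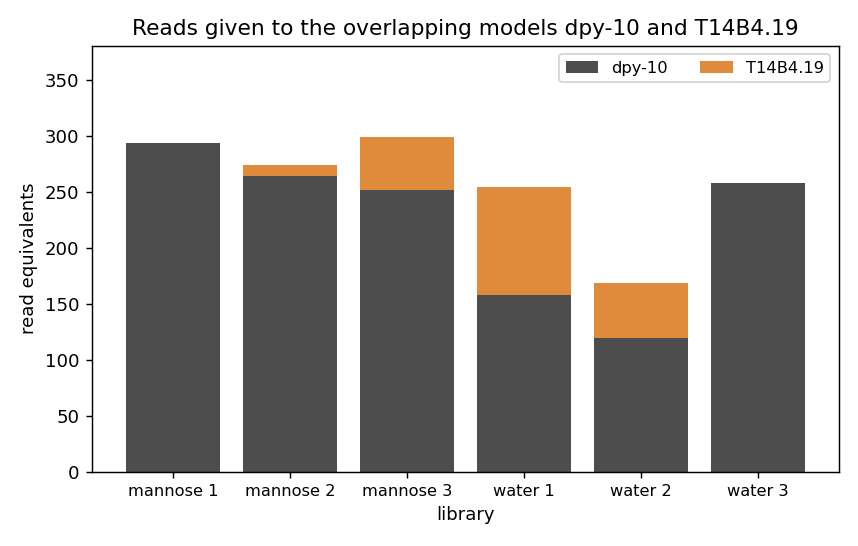
Read equivalents per library given to dpy-10 (grey) and, stacked on it, to the overlapping same-strand model T14B4.19 (orange). T14B4.19 holds 96 and 49 reads in water 1 and water 2 and none in mannose 1 and water 3, where dpy-10 alone has 293 and 258.

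Outside the furrow group, dpy-13 had the largest difference of the 10 members on the log2(FPKM + 1) scale. dpy-13 (IV, 4235614 to 4236710) had 2.34, 2.96 and 3.07 FPKM in mannose and 6.42, 5.20 and 20.4 in water. All 3 mannose libraries lay below all 3 water libraries, and water 3 was far above the other two. The means were 2.79 ± 0.393 and 10.7 ± 8.43 FPKM (SD, n = 3). The limma difference of dpy-13 was −1.40 log2 units (standard error 0.47, unadjusted p = 0.026, adjusted p = 0.9999). Leaving out water 3 gave −0.84 (adjusted p = 0.76). Leaving out mannose 1 as well gave −0.76 (adjusted p = 0.68).

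sqt-3, known to encode a collagen that is needed already for the first larval cuticle, had 2.78, 3.22 and 2.62 FPKM in mannose and 3.42, 3.73 and 7.65 in water (V, 12352745 to 12354320). The groups did not overlap, but mannose 2 and water 1 were close and water 3 was well above the rest. The limma difference of sqt-3 was −0.55 log2 units (standard error 0.28, adjusted p = 0.9999), −0.24 without water 3 and −0.23 without mannose 1 and water 3.

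sqt-1 and rol-6 encode closely related collagens whose mutations are known to interact. sqt-1 (II, 11336315 to 11337835) had 0.994, 1.65 and 1.57 FPKM in mannose and 1.84, 1.39 and 3.74 in water. Water 2 lay within the mannose range. rol-6 (II, 8733050 to 8734239), whose dominant allele is a common marker of transgenic worms, had 0.459, 1.12 and 0.781 FPKM in mannose and 1.82, 1.08 and 2.35 in water. Its groups overlapped through mannose 2 and water 2. In limma sqt-1 differed by −0.41 log2 units (standard error 0.28) and rol-6 by −0.61 (standard error 0.22), with an adjusted p of 0.9999 for both. Leaving out water 3 gave −0.13 for sqt-1 and −0.46 for rol-6. Over the 4 libraries other than mannose 1 and water 3 the values were 0.0031 and −0.32, so the direction of sqt-1 rests on those 2 libraries.

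dpy-14 (I, 6843589 to 6845142) differed in the other direction. It had 4.35, 5.36 and 5.19 FPKM in mannose and 2.97, 2.04 and 1.67 in water, with all mannose libraries above all water libraries. The means were 4.97 ± 0.541 and 2.23 ± 0.667 FPKM (SD, n = 3), 2.23 times higher in mannose. These values rested on 174 to 270 reads in mannose and 68 to 151 in water. The limma difference of dpy-14 was 0.90 log2 units (standard error 0.18, unadjusted p = 0.0024, adjusted p = 0.9999), and a difference of that size or larger in either direction was seen in 0.632% of tested genes. It lay between 0.78 and 1.06 when each library was left out in turn, and was 0.85 without mannose 1 and water 3. Water 3, the highest library for dpy-13, sqt-1, sqt-3 and rol-6, was the lowest for dpy-14. No expressed gene model overlaps dpy-14.

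**Figure D5:**
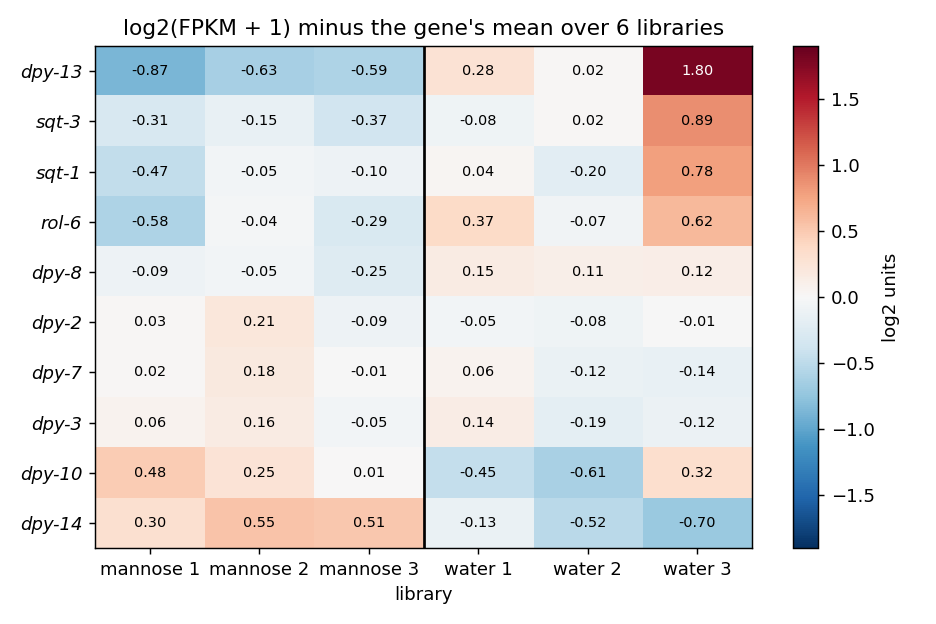
log2(FPKM + 1) of each member minus its mean over the 6 libraries, with mannose left and water right of the line. dpy-13, sqt-3, sqt-1 and rol-6 are highest in water 3 (0.62 to 1.80 above their means), dpy-14 is above its mean in the 3 mannose libraries (0.30 to 0.55), and dpy-2, dpy-3 and dpy-7 stay within 0.21 of theirs.

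The members that passed the filter differed in their profiles across libraries. The profiles of rol-6, sqt-1 and sqt-3 were close to one another, with root mean square differences of 0.17 to 0.25 log2 units over the 6 libraries. dpy-13 was 0.51 to 0.57 from these 3. dpy-14 was 0.78 to 0.86 from rol-6, sqt-1 and sqt-3 and 1.34 from dpy-13, the largest distance of the 15 pairs. Among all tested genes the profile nearest to that of dpy-13 was dpy-5 (0.17 log2 units), another dumpy collagen, with 4.93, 4.77 and 5.97 FPKM in mannose and 8.56, 8.06 and 27.4 in water. dpy-5 differed by −1.12 log2 units, and by −0.59 without water 3. The nearest to dpy-10 was lin-26 (0.062), a zinc finger gene of epidermal fate that overlaps 2 other expressed models on its strand. That dpy-10 profile lacks the reads given to T14B4.19, whose share differed between libraries, and no nearest gene was sought for the summed reads. The nearest to the others were C54F6.5 for dpy-14 (0.088), F19G12.t1 for rol-6 (0.12), cpg-7 for sqt-1 (0.063) and ZK84.1 for sqt-3 (0.089). C54F6.5 passed the filter through the 3 mannose libraries alone, so the filter itself admitted it for being high there. To the median profile of the 6 tested members the nearest were cpg-7 (0.043), ZK84.1 (0.094), Y105C5B.17 (0.12), the linker histone gene his-24 (0.12) and R148.5 (0.12).

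Most other collagens with shape or blister phenotypes had lower means in mannose, as dpy-13 had. Of 10 (dpy-4, dpy-5, dpy-9, dpy-17, lon-3, bli-1, bli-2, bli-6, rol-8 and sqt-2) 7 were lower, 8 passed the filter and none passed the limma test. At an unadjusted limma p under 0.05 there were 3, against 4.73% of all tested genes. Over the 10 the log2 differences had a median of −0.44, which was −0.16 without water 3, −0.68 without water 2 and −0.088 without mannose 1 and water 3. The collagen gene dpy-4 had 3.04, 4.11 and 2.40 FPKM with mannose and 6.72, 6.16 and 21.6 in water. bli-6 had 10.8, 8.12 and 14.4 FPKM against 17.4, 18.1 and 39.1, and rol-8 had 0.559, 0.700 and 0.698 against 1.44, 1.12 and 2.43. These 3 genes had the smallest p of the list, a choice that favours groups that do not overlap. Their groups did not overlap (5.31% of tested genes, lower in mannose), and water 3 was the highest library for each. Without it dpy-4 differed by −0.85 log2 units instead of −1.38, bli-6 by −0.67 instead of −1.03 and rol-8 by −0.46 instead of −0.66. rol-8 passed the filter through the 3 water libraries alone, so its entry in the test required it to be high there. dpy-4 and bli-6 overlap expressed models on the opposite strand. The sixth furrow collagen, dpy-9, had a mean of 1.31 ± 0.225 FPKM with mannose and 1.24 ± 0.153 with water (SD, n = 3). With it, 5 of 6 furrow collagens had higher log2 means in mannose, and 4 of 6 when mannose 1 was left out.

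Genes for collagen-processing enzymes, most of them known for the cuticle, had no common direction. Of 12 genes for hydroxylation, folding, cleavage and cross-linking, all passed the filter, 7 were higher and 5 lower in mannose, and none passed the limma test. At an unadjusted limma p under 0.05 there was 1, against 4.73% of all tested genes. The median log2 difference was 0.021, and −0.017 to 0.13 with 1 library left out. The gene with the unadjusted p under 0.05 was let-268, a lysyl hydroxylase known to act on basement membrane collagen. let-268 had 4.61, 3.98 and 4.18 FPKM in mannose and 3.37, 2.13 and 2.89 in water. dpy-11, a thioredoxin-like gene of the epidermis, had 124.1 ± 11.7 and 110.4 ± 6.59 FPKM, and bli-3, the dual oxidase that cross-links tyrosines, had 2.36 ± 0.415 and 2.04 ± 0.361 (SD, n = 3). let-268 and dpy-11 overlap expressed models on their strand.

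Of 7 cuticlin and related genes 3 were higher and 4 lower (5 higher and 2 lower without water 3), and only cut-2 passed the filter, through 2 mannose and 3 water libraries. cut-2, a structural gene of the insoluble cuticle layer, had 0.767, 1.06 and 1.38 FPKM in mannose and 3.88, 3.08 and 8.55 in water. The groups did not overlap for cut-2 (5.31% of tested genes, lower in mannose). It differed by −1.49 log2 units (standard error 0.34, unadjusted p = 0.0044, limma adjusted p = 0.9999). Without water 3, its highest library, cut-2 differed by −1.12, and without mannose 1 and water 3 by −1.01. The other 6 had at most 1.38 FPKM in any library.

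Genes known to be turned on in mutants without furrows were listed as well. All 7 (nlp-29, nlp-30, nlp-31, cnc-2, gpdh-1, hmit-1.1 and gst-4) had lower means in mannose. Their log2 differences had a median of −0.11, and without water 1 the median was −0.047 with 4 of 7 lower, while without water 3 it was −0.17. Of the 7, none passed the limma test (0 at an unadjusted p under 0.05). gst-4, a glutathione S-transferase gene, had a mean of 29.4 ± 3.08 FPKM with mannose and 34.7 ± 2.23 with water (SD, n = 3). The antimicrobial peptide gene nlp-30 had 1.14, 0.807 and 0.425 FPKM against 1.07, 0.517 and 1.71, and cnc-2 had 1.40 ± 0.0595 against 1.66 ± 0.584. gst-4 and nlp-30 overlap expressed models on their strand. Of 8 epidermal transcription factor genes 7 had higher means with mannose. Their median log2 difference was 0.15 (0.080 without mannose 3 or without water 2), with none past the limma test (0 at an unadjusted p under 0.05). The epidermal GATA factor genes elt-3 and elt-1 had 5.51 ± 0.763 and 3.13 ± 0.488 FPKM with mannose against 4.72 ± 0.702 and 2.78 ± 0.176 with water, and blmp-1, a zinc finger regulator, had 1.36 ± 0.110 and 1.11 ± 0.398 (SD, n = 3). nhr-23, a nuclear receptor gene of the moulting cycle that was singled out after its values were seen, had 16.9, 6.73 and 3.68 FPKM against 3.70, 4.04 and 17.8, high in mannose 1 and water 3.

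Markers of other stages and tissues were summed beside these values. The 6 markers of the adult epidermis, rol-6 among them, summed to 2096 to 2492 FPKM in mannose and 2744 to 3315 in water, so these groups did not overlap. None of the 6 was at 0 in all libraries, and 5 were lower in mannose. The sum was carried by col-19, an adult collagen, with 2410, 2081 and 2461 FPKM in mannose and 2789, 2713 and 3234 in water. The adult collagen col-7 had 14.5, 5.03 and 10.4 FPKM against 19.3, 11.7 and 32.0. The part of the adult epidermis in the differences of dpy-13, sqt-3 and rol-6 was not tested.

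The 12 markers of moulting larvae were all above 0 in at least 1 library and summed to 9.41 to 12.6 FPKM in mannose and 8.87 to 11.1 in water. Without a filter 2 of them had an unadjusted limma p under 0.05, both higher in mannose (1.8% of genes). Both were under the filter on low values. Most of the sum was nas-37, a moulting protease gene, with 7.03 ± 1.01 and 5.81 ± 0.950 FPKM (SD, n = 3). The protease inhibitor gene bli-5 had 1.23 ± 0.507 and 1.34 ± 0.317 FPKM. Of 9 genes of early embryonic lineages med-1 was at 0 in every library, and the 9 summed to 4.39 to 8.84 FPKM in mannose and 4.22 to 7.56 in water. Among them the muscle gene hlh-1 had 1.42, 1.36 and 2.69 FPKM against 1.42, 1.92 and 1.47, and pes-10 had 2.08 ± 1.03 and 1.76 ± 0.838. The 9 oocyte and eggshell markers summed to 2085 to 4317 FPKM in mannose and 2259 to 5039 in water. Of these markers 5 were higher and 4 lower, a split that rested on single libraries. It was 2 and 7 without mannose 1 or without water 1, and 8 and 1 without water 3. Among these, perm-2 had 788.5 ± 118.4 and 953.2 ± 285.0 FPKM, egg-2 207.5 ± 29.7 and 187.5 ± 12.8, and perm-4 518.5 ± 146.5 and 658.6 ± 272.4 (SD, n = 3).

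Mannose 1 and water 3, both high in oocyte transcripts, lay at opposite ends for 3 members. In dpy-13, sqt-1 and rol-6 mannose 1 was the lowest library and water 3 the highest. In sqt-3 mannose 3 was slightly below mannose 1. In dpy-10 mannose 1 and water 3 were the 2 highest libraries, and they were also the 2 in which T14B4.19 had no reads. The part of oocyte content in these values was not tested.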

How the data were processed

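Each library has 1 table of FPKM per gene, as deposited by the authors. The submitters' processing notes name cutadapt, FastQC, HISAT2 2.1.0 and the WBcel235 build; TruSeq and VAHTS kits are both named in the labels' protocols. The sources used here name neither the counting tool nor its strand setting. Read equivalents are FPKM times listed gene length, divided by the commonest nonzero value of that product in each library; 95.0% to 95.8% of values up to 20 reads were whole within 0.05. Low values are limited by depth, and counting intervals (95%, exact Poisson) cover counting error only.

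All genes were fitted with limma 3.58.1 (R 4.3.3; trend, robust) on log2(FPKM + 1) after the filter on low values, two-sided, with Benjamini-Hochberg adjustment over all tested genes, because the unit is not counts. The same procedure was tested on simulated data. Genes named are the 10 members, up to 3 tested genes with the smallest p per list, and the nearest profiles (5 to the members' median, 1 to each tested member). Profile distance is the root mean square difference of centred log2 values. Members and lists were chosen with earlier results of these data known. Positions are those of the deposited tables (WBcel235), and exons are from Ensembl release 115 of that build. Alternatives covered pseudocount, filters, scaling, limma-voom, gene length, left-out libraries, a term for mannose 1 and water 3, a replicate block and, chosen after seeing the data, 3 more: limma-voom without a filter, pseudocount 0.1 without a filter, and T14B4.19 reads added to dpy-10. Lists were also recomputed with libraries left out, a choice made after seeing the data. The 1927 genes without a value were left out.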

Additional observations from a re-analysis of the deposited data

How the results depend on the processing

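Under 15 other settings and 3 more added after seeing the data, 0 members were called, with a lowest adjusted p among members of 0.21 (limma with a term for mannose 1 and water 3). Over all genes 2 were called without mannose 1, 3 without mannose 1 and water 3, and 3 with a pseudocount of 0.1 and no filter, none of them members. Of 180 member differences recomputed, 49 equal the reported value by construction. Among the other 131, those of limma-voom and of pseudocount 0.1 without a filter repeat the filtered ones by construction. With these repeats counted, 130 of the 131 kept their sign. The exception was sqt-1, at 0.0031 without mannose 1 and water 3. The number of members lower in mannose was 5, or 4 without those 2 libraries. The median log2 difference of the members was −0.080. It was 0.042 without mannose 1 and water 3, −0.20 with a pseudocount of 0.1 and −0.21 with limma-voom. The filter does not enter this median, so the last 2 hold with or without it. Both settings change the log2 scale of low genes. With a pseudocount of 0.1 instead of 1, dpy-8 differed by −1.04 instead of −0.26 and dpy-3 by 0.67 instead of 0.11. The part of this scale in the shift of the median was not tested. Leaving out each library in turn gave 0 calls, 5 members lower and a median of −0.14 to −0.018. Deviations from the group means correlated at −0.74, 0.24 and −0.71 between same-numbered libraries 1, 2 and 3, and at 0.77 between mannose 1 and water 3. Deviations within a group sum to 0, so these correlations depend on one another. They cannot tell whether same-numbered libraries were paired. A replicate block cannot change the differences in this balanced design, so the median stayed at −0.080 by construction. With the block 0 members were called, and 164 genes had an unadjusted limma p under 0.05, against 532 without it. Depth limits dpy-3 and dpy-8 most, with 0 to 27 reads per library.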
